A study of Mus musculus with 8 samples.

Results

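The 7 genes described here encode granule proteases of mast cells and basophils, together with the enzyme that makes histamine in the same cells. They were chosen by symbol, Mcpt4, Mcpt8, Cma1, Tpsb2, Tpsab1, Cpa3 and Hdc, from the 32285 genes of the expression matrices. The matrices come from single-cell RNA sequencing of CD45.2+ cells sorted from mouse brain, a gate that takes in leukocytes, and hold 1 library per condition. App NL-G-F mice and WT mice of the C57BL/6J strain, all labelled as 16 weeks old, were compared under 4 conditions, which gives 8 libraries. App NL-G-F mice carry a humanized amyloid-beta stretch with the Swedish, Iberian and Arctic mutations in the endogenous App gene and develop amyloid plaques. The control groups drank water. The acute colitis groups received 2% dextran sulfate sodium (DSS) in their drinking water for a week. The chronic colitis groups received 3 cycles in which 2% DSS and water alternated, each for 5 days. The food allergy groups were sensitized repeatedly by intraperitoneal ovalbumin with alum and then given ovalbumin by mouth every day. In every group a CD45 antibody was injected into the circulation shortly before perfusion, but the expression matrices do not show which cells it had labelled, so cells from vessels and cells from tissue cannot be told apart here.

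Mast cells are long-lived tissue cells that lie along vessels and in the meninges of the brain. Basophils are short-lived blood cells made in the bone marrow. Both bind IgE through a high-affinity receptor, and both release preformed granules when that receptor is crosslinked. The granules of connective-tissue mast cells hold chymases (Mcpt4 and Cma1), tryptases (Tpsb2 and Tpsab1) and carboxypeptidase A3 (Cpa3), bound to heparin. Mouse basophils hold a different serine protease, Mcpt8, which is used to mark and to deplete them. Hdc, histidine decarboxylase, makes the histamine that both cells store, and it is also transcribed by neutrophils. Cpa3 is transcribed early in the lineage, in progenitors that can still give rise to both cells.

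Calling cells from the unfiltered barcodes left 48917 cells, 4829 to 7196 per library, with a median of 2976 to 4140 unique molecular identifiers (UMIs) per cell. A level is given as CPM, the UMIs of a gene summed over the cells of a type per 1000000 UMIs of those cells, with an exact 95% Poisson interval. A positive share is the percentage of cells with at least 1 UMI, with an exact binomial interval. With 1 library per condition, such intervals take in counting error alone, and no level was tested between libraries. Antibody hashtags divided the libraries into 30 groups of cells, but the labels do not tie hashtags to mice. The hashtag groups fell into 2 sets by a sum of 10 immediate-early genes in T cells, 14 groups at 593.5 to 1431 CPM (the low set) and 16 at 2991 to 4897 CPM (the high set), a division made from the data. The high set held 96.1% of the mast cells with 1 hashtag, which were 0.733% of cells (95% CI 0.634 to 0.842) there against 0.0493% (0.0213 to 0.0970) in the low set. Basophils lay the other way, at 1.88% (1.68 to 2.11) of the low set and 0.180% (0.132 to 0.238) of the high set. Fibroblasts, a non-leukocyte type in the sort, numbered 238 in the high set and 0 in the low set. Values within the sets are given where they bear on a comparison, and the part of the sets in the library differences was not tested. Pairs of libraries shared 30 to 72 cell barcodes.

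The genes lie in 4 places of the mouse genome (GRCm38). Cma1 (chr14:55941451-55944675), Mcpt4 (chr14:56059629-56062313) and Mcpt8 (chr14:56082166-56085273) share the minus strand of the chymase locus, where Mcpt4 and Mcpt8 are 19852 bases apart and Cma1 and Mcpt4 114953 bases apart. Tpsab1 (chr17:25343245-25345562, minus) and Tpsb2 (chr17:25366305-25369098, plus) are 20742 bases apart in the tryptase locus. Cpa3 is at chr3:20215620-20242181 and Hdc at chr2:126593667-126619299, both on the minus strand. Reads can be split between near-identical copies, so the transcripts were compared in runs of 31 bases. Mcpt4 shared 12.2% of its runs with other genes, 10.2% with Cma2, and Cma1 shared 10.6% with the gene model Gm48934. The tryptases shared under 0.6% with each other, and Mcpt8 and Cpa3 shared none.

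Mcpt4 and Mcpt8 are neighbours that are read out in different cells, and Cpa3 in both, so the sequence just before the annotated transcripts is shown for these genes and for Cma1. RefSeq promoter windows (GRCm38.p6) were found for 5 of the 7 genes, and the bases shown end just before the first transcribed base. Capitals mark GATAA, the core of sites bound by GATA factors, and TGTGGT, the core bound by RUNX factors, on either strand (TTATC and ACCACA). The matches marked do not overlap one another. In 250-base windows before all 32851 promoters, 22.6% held GATAA and 14.1% held TGTGGT.
Mcpt4 (chr14:56062314-56062560, minus): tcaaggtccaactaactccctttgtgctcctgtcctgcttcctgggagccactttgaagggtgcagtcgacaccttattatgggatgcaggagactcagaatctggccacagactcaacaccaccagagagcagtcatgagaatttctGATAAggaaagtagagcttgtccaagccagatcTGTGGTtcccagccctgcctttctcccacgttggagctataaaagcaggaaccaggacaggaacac
Cma1 (chr14:55944676-55944925, minus): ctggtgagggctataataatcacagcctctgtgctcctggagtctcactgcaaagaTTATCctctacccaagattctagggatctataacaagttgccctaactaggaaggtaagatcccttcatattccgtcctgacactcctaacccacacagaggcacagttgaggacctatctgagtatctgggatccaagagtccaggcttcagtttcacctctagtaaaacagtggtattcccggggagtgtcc
Mcpt8 (chr14:56085274-56085447, minus): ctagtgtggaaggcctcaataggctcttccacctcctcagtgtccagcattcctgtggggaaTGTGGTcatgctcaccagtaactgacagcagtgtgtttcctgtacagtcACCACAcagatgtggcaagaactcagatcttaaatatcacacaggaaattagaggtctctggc
Cpa3 (chr3:20242182-20242431, minus): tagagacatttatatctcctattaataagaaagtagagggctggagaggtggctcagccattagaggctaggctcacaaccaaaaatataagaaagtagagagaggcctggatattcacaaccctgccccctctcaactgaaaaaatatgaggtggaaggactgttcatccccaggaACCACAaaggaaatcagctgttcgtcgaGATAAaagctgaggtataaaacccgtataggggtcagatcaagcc
Mcpt4 and Cpa3 held 1 match of each motif. Cma1 held 1 GATAA and Mcpt8 held 2 TGTGGT, and neither held the other motif in the window shown. A match in these letters says nothing of whether a factor binds there.

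Clusters were made without the 7 genes, and cell types were named from markers that do not include them. The mast cell cluster held 280 cells. Kit, the stem cell factor receptor, was found in 95% of them, and the mast cell receptors Mrgprb1 in 86.8% and Mrgprb2 in 52.5%, while both Mrgprb genes were at 0 in basophils. The basophil cluster held 409 cells, of which 63.8% had Prss34, a basophil protease, 75.1% Cd200r3 and 84.4% Ms4a2, the IgE receptor beta chain. The eosinophil genes Siglecf, Epx and Prg2 were at 0 in mast cells. In basophils Siglecf was 40.14 CPM in 19.1% of the cells, Epx 70.81 CPM in 1.47% and Prg2 1626 CPM in 1.22%. None of the 7 genes was used for either name, but several markers, such as Prss34, Kit and Ms4a2, are described again below.

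Of the 7 genes, 6 were highest in mast cells among the 19 named cell types, and Mcpt8 was highest in basophils. The 4 chymase and tryptase genes were close to exclusive to mast cells. Mcpt4 had 45473 CPM (45029 to 45920) in mast cells, and 95.3% of all its UMIs in typed and untyped cells lay there. Cma1 had 31170 CPM with 93.8% of its UMIs there, Tpsb2 18028 CPM with 94.8%, and Tpsab1 811.2 CPM with 95.9%. In basophils these 4 genes had 7, 9, 2 and 1 UMIs. Mcpt8 had 6495 CPM (6398 to 6593) in basophils, with 96.7% of its UMIs, and 28.32 CPM (18.33 to 41.81) in mast cells. Cpa3 was shared, at 12739 CPM in mast cells and 2475 CPM in basophils. Hdc had 3885 CPM in mast cells and 636.5 CPM in basophils, but 74.8% of its UMIs came from the far more numerous neutrophils.

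**Figure D1:**
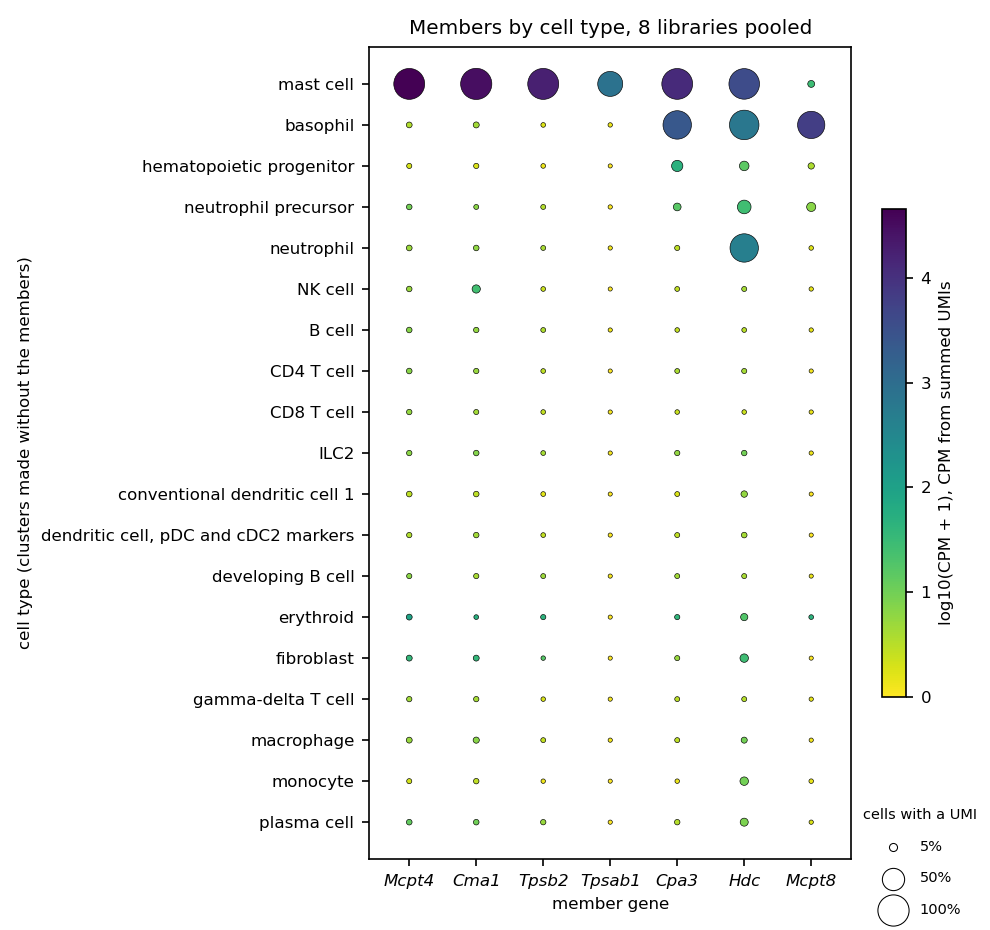
Each row is a cell type and each column one of the 7 genes, with 8 libraries pooled. Colour gives log10(CPM + 1) and dot size the percentage of cells with a UMI. Large dots stand at mast cells for 6 genes, at basophils for Cpa3, Hdc and Mcpt8, and at neutrophils for Hdc.

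The positive shares gave the same picture against the share in B cells, which lack granules of this kind. Mcpt4 was found in 98.2% of mast cells (median depth 2856 UMIs) and 1.48% of B cells (2406 UMIs). Cma1 was found in 100% and 1.24%, Tpsb2 in 98.6% and 0.692%, Cpa3 in 97.5% and 0.438%, and Hdc in 96.1% and 0.593%. Tpsab1 was found in 63.6% of mast cells and 0.0706% of B cells. The C57BL/6 strain is known to carry a splice-site change in this tryptase gene that prevents its protein from being made. In basophils (4192 UMIs) Mcpt8 was found in 76.0% against 0.141% in B cells, Cpa3 in 82.9% and Hdc in 89.2%. When each cell was thinned to 1000 UMIs, the shares fell to 44.4% for Tpsab1 and 88.8% for Hdc in mast cells, and in basophils to 63.3% for Mcpt8, 65.4% for Cpa3 and 52.1% for Hdc.

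Below the leading types, the order of levels was low and mostly unresolved. After mast cells, Mcpt4 was 88.77 CPM in erythroid cells, 36.16 CPM in fibroblasts and 12.29 CPM in plasma cells. In erythroid cells 309 of the 315 UMIs came from 1 cell, and in fibroblasts 62 of the 67. From B cells (6.069 CPM) down to progenitors (0.9636 CPM), each of the 14 types overlapped the next in its interval. For Mcpt8, erythroid cells (45.37 CPM) and mast cells overlapped, but 160 of the 161 erythroid UMIs came from 1 cell. Neutrophil precursors (5.690 CPM) and progenitors (2.795 CPM) followed, each apart from its neighbours. For Cpa3, progenitors (46.35 CPM) and erythroid cells (39.73 CPM) overlapped, but 85 of the 141 erythroid UMIs came from 1 cell. It was found in 1.05% of erythroid cells and 11.5% of progenitors. Neutrophil precursors stood at 15.10 CPM of Cpa3.

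The 7 genes made up 11.2% of all UMIs of mast cells. The share was 9.97% for the WT control, 12.2% and 9.25% for WT acute and chronic colitis, and 11.5% for food allergy in WT. The App NL-G-F control had 8.33%, acute colitis 12.9%, chronic colitis 12.8% and food allergy 13.5%. The App NL-G-F control was the lowest of the 8 libraries and the App NL-G-F food allergy library the highest. In basophils the genes made up 0.961% of UMIs, from 0.285% in WT acute colitis to 1.27% in App NL-G-F food allergy.

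Mcpt4, a chymase that cleaves after aromatic residues, was 2.02 times as high in the highest library as in the lowest. WT mast cells had 31668 CPM as control, 53523 with acute colitis, 39495 with chronic colitis and 44559 with food allergy. App NL-G-F mast cells had 30317, 52671, 52437 and 61169 CPM in the same order, which is kept below. Both controls were below all 6 treated libraries. Within the high set the WT control had 37818 CPM and the App NL-G-F control 44436 CPM, the latter above the 39911 CPM of WT chronic colitis. Cma1, the alpha-chymase, was 29723, 32655, 22493 and 35410 CPM in the WT libraries and 24178, 37302, 36503 and 34773 CPM in the App NL-G-F libraries. Here the App NL-G-F control was below the 3 treated App NL-G-F libraries, while the WT control lay among its treated libraries. Tpsb2, the main mast cell tryptase, followed the same division, at 18029, 18906, 15278 and 17625 CPM for WT and 13969, 21206, 19667 and 20322 CPM for App NL-G-F mice.

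Cpa3, which trims the ends of peptides in the granule, had the narrowest range, its highest library being 1.36 times its lowest. It was 13647, 12276, 11381 and 12863 CPM for WT and 10418, 14137, 13838 and 14191 CPM for App NL-G-F mast cells. Hdc was 5654 CPM in WT control and 3961, 3326 and 3285 CPM in the treated WT libraries, so the WT control was above all other 7 libraries. App NL-G-F mast cells had 3527, 2823, 4864 and 4249 CPM of Hdc, with acute colitis lowest. Tpsab1 was 931.9, 714.8, 563.0 and 1402 CPM for WT and 782.9, 719.7, 650.0 and 778.5 CPM for App NL-G-F mast cells. The WT food allergy library stood above the rest for Tpsab1, with 131 UMIs of which 60.3% came from 4 of its 34 cells. Mcpt8 was at most 0.131% of the UMIs of the 7 genes in any library's mast cells.

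**Figure D2:**
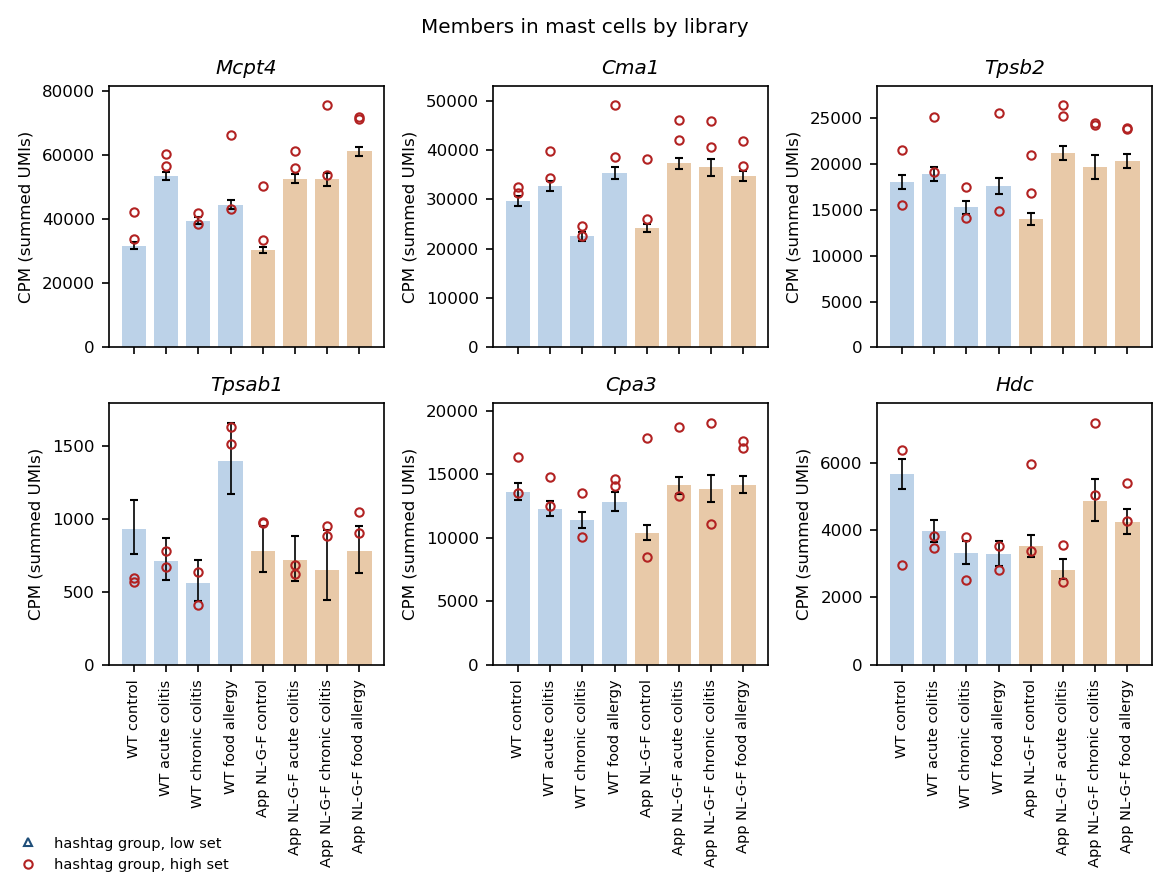
CPM of 6 genes in mast cells of the 8 libraries (bars, with 95% counting intervals), WT in blue and App NL-G-F in tan. Points are hashtag groups with at least 5 mast cells, all in the high set. Groups of 1 library often lie farther apart than the counting intervals reach, as for Mcpt4 in App NL-G-F control at 33533 and 50395 CPM.

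Hashtag groups of the same library differed by more than counting error. With at least 5 mast cells in a group, Mcpt4 was 33815 and 42225 CPM in the 2 groups of WT control and 43303 and 66250 CPM in those of WT food allergy. It was 50395 and 33533 CPM in App NL-G-F control and 71959 and 71107 CPM in App NL-G-F food allergy. For Mcpt4 the food allergy groups were above the control groups of the same genotype, but the groups overlapped between genotypes. The counting intervals of the nearest WT groups overlapped too (40104 to 44428 and 40930 to 45778 CPM). For Tpsb2 the WT food allergy groups, at 14898 and 25549 CPM, lay on either side of the control groups at 15499 and 21582 CPM. How many of all genes separate the groups as Mcpt4 did was not counted. Hdc was 2971 and 6369 CPM in WT control, a wider range than the 2820 and 3523 CPM of WT food allergy. With 2 such groups per library, an exact permutation test within a genotype cannot reach 0.05, and no test was run.

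Single mast cells held most of the set at once. Of the 280 cells, 170 (60.7%) had all 6 genes and 99 (35.4%) had 5. Levels of Mcpt4, Cma1 and Tpsb2 moved together from cell to cell. On log2(CPM + 100), the Pearson correlation over the 280 cells was 0.80 between Mcpt4 and Tpsb2, 0.71 between Cma1 and Tpsb2, 0.70 between Mcpt4 and Cma1, and 0.63 between Cma1 and Cpa3. The tryptase Tpsab1 was lower, at 0.15 to 0.30 with the other proteases, and Hdc was at -0.0034 with Cpa3, 0.28 with Mcpt4 and 0.34 with Tpsb2. In the 192 cells of at least 2000 UMIs Hdc reached 0.52 with Tpsb2 and 0.45 with Mcpt4. The cells share libraries and depth, so these correlations are a description. Over the 204 cells with exactly 1 hashtag, Mcpt4 and Tpsb2 were at 0.79, and Cpa3 and Hdc at 0.025.

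Mcpt8 was spread more unevenly over basophils than Mcpt4 over mast cells. Mcpt8 in single basophils had a median of 1663 CPM with quartiles of 148.2 and 7596 CPM, and the top 41 cells held 48.9% of its UMIs. In mast cells the top 28 cells held 27.8% of Mcpt4. All 3 basophil genes were found together in 259 of 409 cells (63.3%), and 8 cells had none of them. Mcpt8 went with Prss34, its correlation over cells being 0.88, and with Cpa3 at 0.56, but not with Hdc at -0.15.

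Basophils with and without a UMI of Prss34 were then set side by side, a division made after the values had been seen. The 261 cells with Prss34 had 7741 CPM of Mcpt8 and 2832 CPM of Cpa3, and the 148 without had 252.5 and 687.0 CPM. Hdc lay the other way, at 557.9 CPM with and 1031 CPM without Prss34. The cells with Prss34 were deeper, with a median of 7355 UMIs against 2356, and the part of depth was not tested.

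Cycling cells were common among basophils and rare among mast cells. Counting a cell as cycling when it had at least 2 of Mki67, Top2a, Birc5, Cenpf and Ube2c, also a division made after values were seen, 77 of 409 basophils (18.8%, 15.2 to 23.0) and 2 of 280 mast cells (0.714%, 0.0866 to 2.56) were cycling. The cycling basophils had 10100 CPM of Mcpt8 and the others 4355 CPM, and for Cpa3 the values were 3295 and 1988 CPM. Hdc was 468.6 CPM in cycling and 736.2 CPM in other basophils. The cycling cells had a median of 11470 UMIs and the others 3300. Within basophils of 5000 to 20000 UMIs, Mcpt8 was 12008 and 5655 CPM, Cpa3 3590 and 2596 CPM, and Hdc 503.7 and 483.4 CPM. Median depths there were 11280 and 9372 UMIs, Mcpt8 and Cpa3 were again higher in cycling cells, and the intervals of Hdc overlapped. The part of depth was not tested. By library, Mcpt8 was higher in the cycling cells in all but WT acute colitis (1 cycling cell) and WT chronic colitis (3911 and 3927 CPM). The cycling share was 40.0% in WT control, with 65 basophils, and 6.73% in App NL-G-F acute colitis, with 104.

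By library, the 65 basophils of the WT control had 9102 CPM of Mcpt8, the 10 of acute colitis 950.0, the 19 of chronic colitis 3923 and the 15 of food allergy 5185. The 48 basophils of the App NL-G-F control had 8174 CPM, the 104 of acute colitis 2318, the 63 of chronic colitis 6270 and the 85 of food allergy 9098. Acute colitis was the lowest condition in both genotypes. Cpa3 was 2908, 798.0, 2406 and 1856 CPM in the WT libraries and 2521, 1682, 2753 and 2934 CPM in the App NL-G-F libraries, with acute colitis again lowest. Hdc was 591.6, 1102, 662.9 and 725.5 CPM for WT and 859.6, 639.8, 482.5 and 624.1 CPM for App NL-G-F basophils. For Hdc the WT control was below its 3 treated libraries and the App NL-G-F control above its own. The WT acute colitis value rested on 10 cells with a median of 1129 UMIs.

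**Figure D3:**
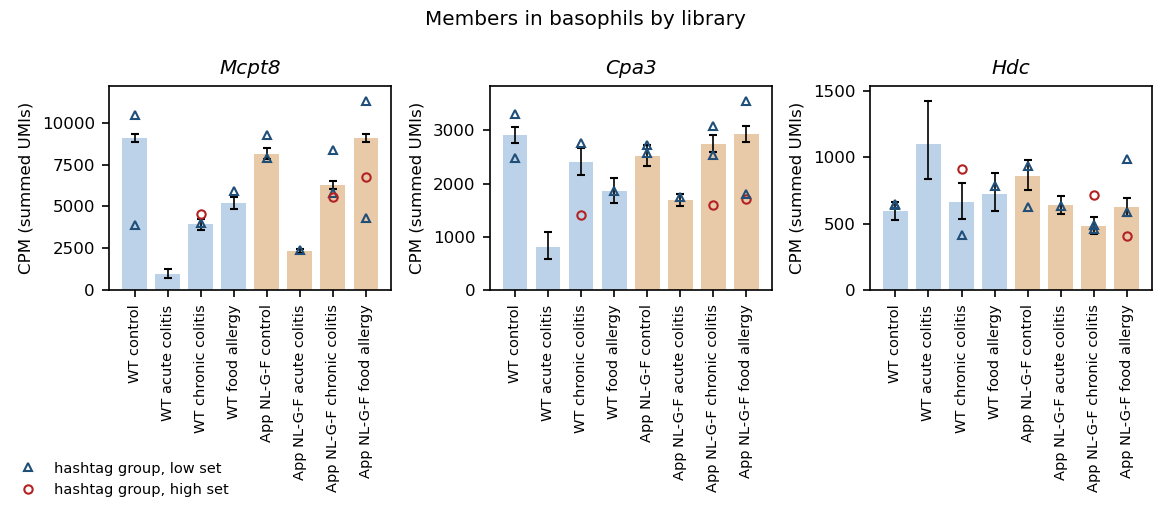
CPM of Mcpt8, Cpa3 and Hdc in basophils of the 8 libraries (bars, with 95% counting intervals), WT in blue and App NL-G-F in tan. Points are hashtag groups with at least 5 basophils, triangles for the low set and circles for the high set. Mcpt8 is lowest in the acute colitis libraries, at 950.0 and 2318 CPM.

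Progenitors held Cpa3 with little of the other genes. Among 836 hematopoietic progenitors, Cpa3 had 46.35 CPM (42.30 to 50.68) and was found in 96 cells (11.5%; B cells 0.438%). Hdc had 13.68 CPM there, Mcpt8 2.795 CPM and Mcpt4 0.9636 CPM, and Tpsab1 had 0 UMIs in the 836 cells. For that positive share of 0% the exact upper limit was 0.440%, and a floor of 3 counts is 0.359%. Both concern cells with a UMI, not cells expressing the gene. Gata2, a transcription factor of both lineages, was found in 80.2% of the Cpa3-positive and 44.1% of the Cpa3-negative progenitors, Ms4a2 in 24.0% and 0.946%, and Hdc in 28.1% and 5.14%. Flt3, a receptor of lymphoid and early progenitors, was found in 15.6% and 44.3%. Median depths were 9528 and 9710 UMIs. The cells were divided by Cpa3 after its values had been seen.

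Cpa3 in progenitors ranged widely between libraries. The WT control had 31 CPM, acute colitis 80.06, chronic colitis 10.37 and food allergy 109.7. For App NL-G-F mice the values were 101.4, 18.62, 38.91 and 69.55 CPM in that order. The App NL-G-F control was 3.27 times the WT control (2.14 to 5.18). Food allergy over control was 3.54 (2.23 to 5.79) for WT and 0.686 (0.526 to 0.892) for App NL-G-F progenitors, opposite directions whose difference was not tested. The positive shares were 18.9% in WT control and 14.3% in WT food allergy, against the order of the CPM, so no order is read from either.

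Neutrophil precursors, a cluster of 2312 cells marked by Elane and Mpo, held a small group with basophil genes. Mcpt8 was found in 159 cells (6.88%) and Cpa3 in 103 (4.46%). Of the Cpa3-positive cells, 35.0% had Mcpt8, 75.7% Hdc, 47.6% Gata2 and 80.6% Kit, against 5.57%, 15.03%, 2.67% and 23.1% of the Cpa3-negative cells. Median depths were 22531 and 19658 UMIs. The Mcpt8-positive precursors still had the neutrophil granule gene Elane in 97.5%, and 0 of the 159 had Prss34. Since precursors are deep cells, only 0.531% had Mcpt8 after thinning to 1000 UMIs.

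Hdc in neutrophils was a broad signal at a lower level than in mast cells. Neutrophils had 461.9 CPM (455.9 to 468.0), with a UMI in 82.6% of cells and in 38.2% after thinning, against 0.593% of B cells. The cluster led by G0s2, Cxcl2 and Il1b had 604.3 CPM (595.1 to 613.7), and the cluster led by Olfm4, Cd177 and Lcn2, granule genes of less mature neutrophils, had 280.8 CPM (273.7 to 288.0). Precursors had 26.19 CPM. In the order used above, the WT libraries had 901.7, 790.5, 438.7 and 666.9 CPM and the App NL-G-F libraries 491.6, 242.3, 527.2 and 532.3 CPM. The WT control was highest and App NL-G-F acute colitis lowest. The 2 clusters did not make up the libraries alike: the cluster led by G0s2 held 98.8% of WT control neutrophils and 10.8% of those in App NL-G-F acute colitis. Within that cluster Hdc was still 900.6 CPM in WT control and 220.9 CPM in App NL-G-F acute colitis. The pooled order of the clusters did not hold in every library. The cluster led by Olfm4 was higher in App NL-G-F acute colitis (244.1 CPM), which held 1268 of its 2312 cells, in App NL-G-F chronic colitis (541.0 against 514.1 CPM) and in WT control (1174 CPM from 3 cells).

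Cma1 lay farthest from the mast cell pattern in a cluster of NK cells. In every other named type the ratio of Cma1 to Mcpt4 UMIs was between 0.585 and 1.61, with 0.686 (0.675 to 0.696) in mast cells. Several types lay above the mast cell interval, such as neutrophils at 1.22 (1.003 to 1.48) and macrophages at 1.31 (0.875 to 1.98). Among neutrophils, 1 cell held 101 of the 234 Cma1 UMIs and 1 cell held 63 of the 192 Mcpt4 UMIs. In NK cells the ratio was 5.80 (4.27 to 8.02). It came from the cluster of 1352 cells led by Gzma, Klra4, Klra8 and Eomes, where Cma1 had 259 UMIs and Mcpt4 22, a ratio of 11.8 (7.61 to 19.1). The other NK cluster, 1782 cells led by Gzmc, had 25 and 27 UMIs, a ratio of 0.926 (0.515 to 1.66).

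In the Gzma-led cluster, Cma1 was found in 142 cells (10.5%), of which 53 had at least 2 UMIs and the highest had 14. In the Gzmc-led cluster it was found in 25 cells (1.40%) and none had more than 1 UMI. After thinning to 1000 UMIs the shares were 4.74% and 0.518%. The Cma1-positive cells of the first cluster had Gzma in 97.2%, the granule genes Gzmb in 71.8% and Prf1 in 78.2%, against 67.8%, 36.1% and 54.5% of the Cma1-negative cells, although they were shallower (medians of 2883 and 3624 UMIs). None of them had Cpa3 or Mrgprb1, while Mcpt4 was found in 4.93% of the Cma1-positive and 1.07% of the Cma1-negative cells. The signal was present in all 8 libraries, from 32.55 CPM in App NL-G-F food allergy to 71.29 CPM in App NL-G-F chronic colitis, and in both sets, at 34.08 CPM in the low and 52.41 CPM in the high set. The ratio of Cma1 to Mcpt4 was lowest in App NL-G-F acute colitis, at 2.54 (1.30 to 5.255), where 4.92% of these cells had Mcpt4. In each other library the ratio was 6.80 or more, or Mcpt4 had no UMI. With the estimated free RNA subtracted, Cma1 in all NK cells was 20.07 CPM instead of 24.61 CPM. Of the Cma1 transcript, 10.6% of runs are shared with Gm48934, as given above, and reads from the 2 genes were not separated.

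**Figure D4:**
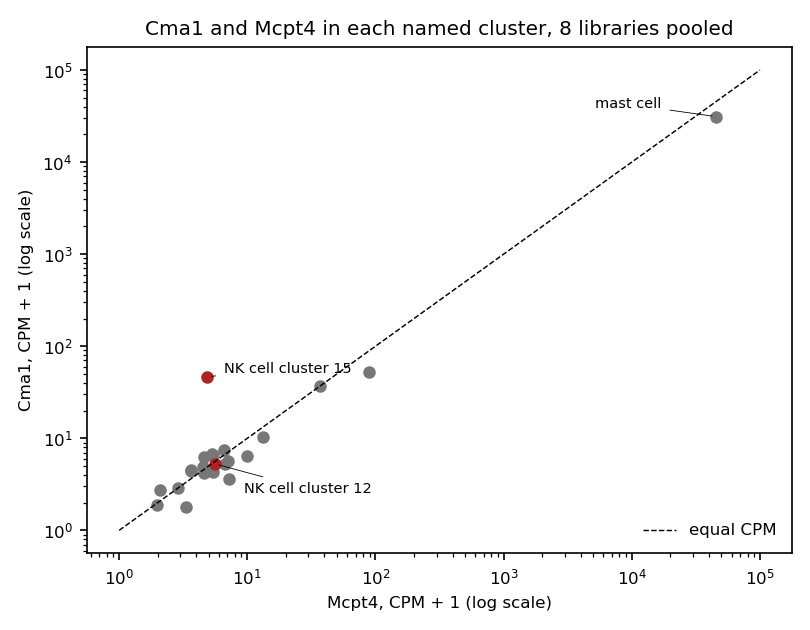
Cma1 against Mcpt4 in each named cluster, both as CPM + 1 on log axes with 8 libraries pooled. The dashed line marks equal CPM. Mast cells lie at the top right and most clusters near the line at a few CPM, while NK cluster 15 (led by Gzma) lies above it at 45.61 CPM of Cma1 and 3.875 CPM of Mcpt4; NK cluster 12 is led by Gzmc.

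Mast cell proteases were also counted outside the mast cell cluster, and over all libraries most of these UMIs lay in a few cells. Outside the mast cell cluster, 4646 UMIs of Mcpt4, Cma1 and Tpsb2 were counted in 48637 cells. Of these, 59.7% lay in 26 cells with at least 10 such UMIs, of which 18 carried several hashtags or none. By library such cells held 26.1% in WT acute colitis, 0 of 213 UMIs in WT control, 0 of 167 in App NL-G-F chronic colitis and 59.3% to 74.1% in the others. The 13 cells with at least 50 UMIs held 52.5% and 11 of them carried several hashtags or none. Plasma cells had 8 of the 26, neutrophils 6 and precursors 3. In the mast cell cluster only 2 cells had under 10 UMIs of these genes. The barcodes ranked 45000 to 90000 by depth, which stand for free RNA, had 202.5 to 1979 CPM of Mcpt4 by library and 12.80 to 69.20 CPM of Mcpt8.

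Whether the share of these types among the sorted cells differed between food allergy and control was the only question with a test. Mast cells made up 0.445% of the WT control, 0.973% and 0.534% of WT acute and chronic colitis, and 0.677% of cells in the WT food allergy group. For App NL-G-F mice the values were 0.536%, 0.625%, 0.282% and 0.602%. The difference between food allergy and control was 0.232 percentage points in WT (95% CI -0.0523 to 0.537) and 0.0659 points in App NL-G-F mice (-0.198 to 0.332). Both intervals included 0 with all called cells as the denominator. That denominator was not alike in WT. The neutrophil cluster led by G0s2 held 977 of 5025 cells in WT food allergy and 253 of 6515 in WT control. The WT interval is therefore read for that denominator only, and not as absence of a difference. Over hashtag groups of at least 100 cells the mean was 0.487% ± 0.459 (SD, n = 3) against 0.315% ± 0.304 (n = 4) in WT, with an exact two-sided permutation p of 0.629 (0.838 adjusted over 4 tests). In App NL-G-F mice it was 0.523% ± 0.767 (n = 4) against 0.446% ± 0.445 (n = 4), with an exact permutation p of 0.857 (0.857 adjusted). The smallest p these designs allow is 0.0571 in WT, which cannot pass 0.05, and 0.0286 in App NL-G-F mice. Within the high set, the shares were 0.708% and 0.550% for WT and 1.01% and 0.793% for App NL-G-F mice for food allergy and control.

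Basophil shares moved in opposite directions in the 2 genotypes, by more than counting error in the libraries. The WT control had 0.998%, acute colitis 0.207%, chronic colitis 0.338% and food allergy 0.299%, so the WT control was above the treated WT libraries taken whole. In App NL-G-F mice they were 0.696%, 1.45%, 1.05% and 1.25% in the same order, so the control was below. Food allergy minus control was -0.699 points (-1.001 to -0.401) for WT and 0.553 points (0.216 to 0.898) for App NL-G-F mice. Over hashtag groups neither difference passed. The means were 0.6002% ± 0.872 (n = 3) against 0.764% ± 0.921 (n = 4) in WT, with an exact permutation p of 0.629 (0.838 adjusted), and 1.36% ± 1.43 against 0.668% ± 0.586 (n = 4 each) in App NL-G-F mice, with an exact permutation p of 0.40 (0.838 adjusted).

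The sets moved with these shares. The WT control library had 2795 cells in low-set hashtag groups and WT food allergy 436, and within the low set basophils were 1.68% and 1.61%, a difference of -0.0761 points (-1.18 to 1.66). Without hashtag 5 of WT control, which held 42 of its 65 basophils, the library difference was -0.210 points. In App NL-G-F mice the low-set shares were 1.17% in control and 2.19% in food allergy, a difference of 1.03 points (0.383 to 1.69). Without hashtag 6 of App NL-G-F food allergy the library difference was 0.176 points. WT chronic colitis was above the control within each set, at 2.07% against 1.68% in the low and 0.191% against 0.162% in the high set, opposite to the whole libraries. App NL-G-F acute colitis was above its control in the low set (2.59% against 1.17%). In the high set it was 0.0770% against 0.165%, from 2 and 5 basophils, a difference whose interval included 0 (-0.318 to 0.142 points).

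**Figure D5:**
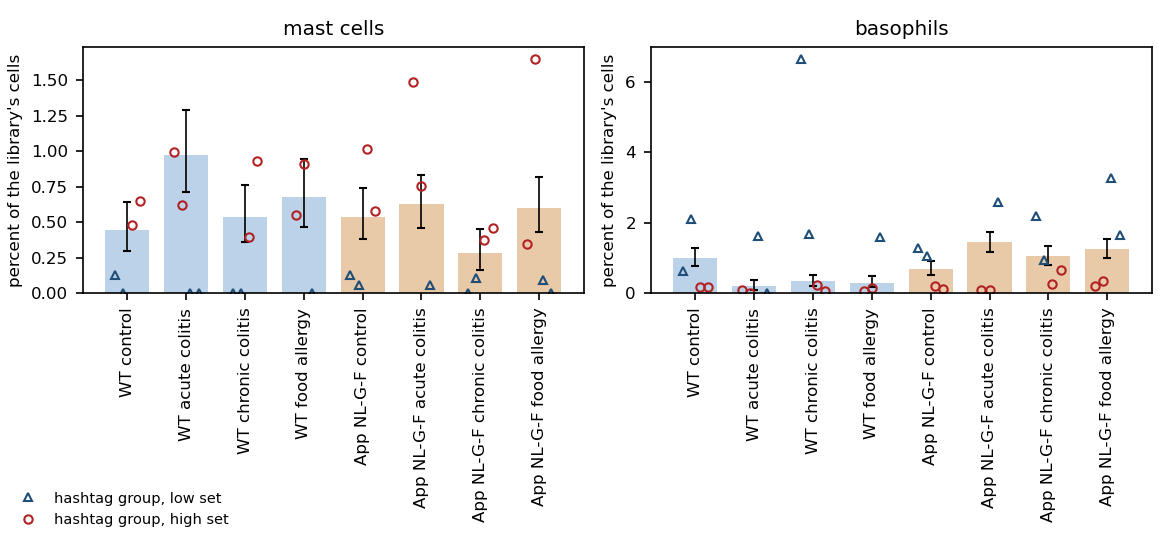
Mast cells (left) and basophils (right) as percentages of the cells of each library (bars, with exact 95% binomial intervals), WT in blue and App NL-G-F in tan. Triangles are low-set and circles high-set hashtag groups. Mast cells are near 0 in the low set, where basophils reach 3.27% in groups of at least 100 cells; the triangle at 6.67% is a group of 30 cells.

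In mast cells, the summed CPM of the 7 genes was 1.16 times the control in WT food allergy (1.13 to 1.19) and 1.63 times in App NL-G-F food allergy (1.59 to 1.67). Mcpt4 was 1.41 times the control for WT and 2.02 times for App NL-G-F mice, Cma1 1.19 and 1.44 times, and Tpsb2 0.978 and 1.46 times. Cpa3 was 0.943 and 1.36 times, Tpsab1 1.504 and 0.994 times, and Hdc 0.581 and 1.21 times. Hdc lay in opposite directions in the 2 genotypes, and that difference was not tested. By the fold used throughout, 2-fold on log2(CPM + 10) for genes that had 50 or more UMIs in the pair of libraries and 50 CPM in either, 0 of the 6 genes tested passed in WT mast cells, where 8.92% of 538 genes did. In App NL-G-F mast cells only Mcpt4 passed, as higher, where 4.71% of 679 genes passed in either direction and 2.21% as higher. The median log2 difference of the 6 genes was 0.11 for WT and 0.48 for App NL-G-F mice, beside -0.05 and -0.09 over all genes tested.

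The size of these differences depended on which cells were counted. In App NL-G-F control, 24 of the 37 mast cells lay in high-set hashtag groups, where Mcpt4 was 44436 CPM against 30317 CPM in the whole library. Within the high set the ratio of Mcpt4 was 1.61 (1.54 to 1.68) in App NL-G-F mice, under 2, and 1.48 (1.41 to 1.55) in WT. The summed ratio there was 1.30 for WT and 1.35 for App NL-G-F mice. Tpsab1 within the high set was 2.70 times the control (1.87 to 3.96) in WT, from 100 and 43 UMIs, and 1.03 times in App NL-G-F mice. That WT ratio is above 2, but how many of all genes passed within the high set is not given. Its interval covers counting error only. In the whole WT food allergy library, 60.3% of the Tpsab1 UMIs of mast cells lay in 4 of 34 cells. A gate on single cells by mast cell markers in place of the cluster gave a summed ratio of 0.844 for WT and 0.996 for App NL-G-F mice. Without hashtag 5 of WT food allergy the WT ratio was 0.884, and without hashtag 6 of App NL-G-F control the App NL-G-F ratio was 2.52.

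In basophils, the summed CPM was 0.617 times the control in WT food allergy (0.578 to 0.658) and 1.10 times in App NL-G-F food allergy (1.05 to 1.14). Mcpt8 was 0.570 (0.526 to 0.616) and 1.11 (1.06 to 1.17) times the control, Cpa3 0.639 and 1.16 times, and Hdc 1.23 and 0.726 times. Of the 3 genes tested 0 passed 2-fold, where 6.35% of 2284 genes did for WT and 1.39% of 2452 genes for App NL-G-F basophils. Their median log2 difference was -0.64 for WT and 0.15 for App NL-G-F mice, beside -0.08 and -0.0063 over all genes. Within the low set, Mcpt8 was 0.604 (0.544 to 0.670) times the control in WT, from 7 and 47 cells, and 1.07 (1.01 to 1.13) times in App NL-G-F mice, from 70 and 38 cells. The 2 low-set groups of App NL-G-F food allergy, with 35 basophils each, had 4280 and 11319 CPM of Mcpt8, on either side of the 2 control groups at 7894 and 9295 CPM. Without the second of them (hashtag 7) the summed ratio was 0.826.

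Acute colitis gave the largest differences of Mcpt8. It was 0.104 times the control in WT (0.0774 to 0.138), from 50 UMIs in 10 cells, and 0.284 times in App NL-G-F mice (0.264 to 0.304), from 1239 UMIs in 104 cells. Both passed 2-fold as lower, as did Cpa3 in WT at 0.275 times, where 26.9% of 2008 genes passed in either direction and 18.3% as lower for WT. For App NL-G-F mice these were 4.25% and 1.61% of 2421 genes. In App NL-G-F mice 95 of the 104 basophils came from hashtag 7, a low-set group of 3667 cells with 2354 CPM, while the 2 low-set control groups had 7894 and 9295 CPM. Prss34 also passed as lower in both genotypes. In WT acute colitis, 5 of the 5 IgE receptor and signalling genes tested passed as lower too, in these 10 shallow cells. In chronic colitis Mcpt8 was 0.431 times the control in WT, past 2-fold, where 9.18% of 2266 genes passed and 6.49% as lower. In App NL-G-F mice it was 0.767 times and did not pass, where 2.31% of 2248 genes did. The WT control groups had 10482 CPM of Mcpt8 (hashtag 5, 42 basophils) and 3879 CPM (hashtag 4, 5 basophils). The WT chronic colitis groups with at least 5 basophils lay between them, at 4017 and 4543 CPM. Within the low set Mcpt8 was 0.105 and 0.276 times the control in acute colitis and 0.40 and 0.7497 times in chronic colitis (WT and App NL-G-F). The WT values there rested on 2 basophils in acute and 8 in chronic colitis, against 47 in control. The high set held 5 basophils in each control, and there the ratios were 0.0885 and 6.37 in acute colitis (2 cells each) and 2.15 and 3.16 in chronic colitis (9 and 14 cells).

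In mast cells 0 of the 6 genes passed 2-fold in either form of colitis. The percentages over all genes were 12.9% of 644 in WT acute, 6.04% of 695 in App NL-G-F acute, 11.9% of 588 in WT chronic and 8.62% of 464 in App NL-G-F chronic colitis. Mcpt4 was 1.69 and 1.74 times the control in WT and App NL-G-F acute colitis, and 1.25 and 1.73 times in chronic colitis. Within the high set these were 1.52 and 1.35 times, and 1.06 and 1.48 times. The comparisons of a genotype share its control library, so these values are not separate evidence. Between the controls, App NL-G-F over WT was 0.836 (0.814 to 0.858) for the summed CPM in mast cells, with Mcpt4 at 0.957 and Hdc at 0.624 times. Within the high set the summed ratio turned to 1.09 (1.06 to 1.12) and that of Mcpt4 to 1.18 (1.12 to 1.24). In basophils it was 0.918 (0.879 to 0.958), with Mcpt8 at 0.898 and Hdc at 1.45 times.

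Other genes of the granule and its release were read from 8 lists of 61 genes in all, of which 50 had at least 50 UMIs in mast cells or basophils. Several of them are markers of the 2 clusters, so their levels describe the clusters and were not tested. Among 6 other granule proteases, 3 were higher in mast cells and 3 in basophils: Tpsg1, a membrane-bound tryptase, was 569.9 and 0 CPM, while Prss34 was 146.1 and 35266 CPM and Ctsg 70.24 and 2848 CPM. Gzmb was higher in mast cells by CPM (162.0 and 33.70), although it was found in 2.86% of mast cells and 6.11% of basophils. Among 5 genes of granule matrix and amine storage, 4 were higher in mast cells, such as Slc18a2, the vesicular amine transporter, at 465.6 and 139.3 CPM, while Srgn, the core protein to which heparin is attached, was 3743 and 3427 CPM.

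Of the 8 IgE receptor and signalling genes, 5 were higher in mast cells, and the alpha and gamma chains of the receptor differed little: Fcer1a was 1490 and 1673 CPM and Fcer1g 2801 and 2336 CPM. The beta chain Ms4a2 was higher in basophils, at 363.7 CPM in mast cells (325.0 to 405.7) and 781.9 CPM in basophils (748.6 to 816.4). In the lipid mediator list of 4, Hpgds, which makes prostaglandin D, was 261.7 CPM in mast cells and 0 in basophils, while Alox5ap, needed for leukotriene synthesis, was 797.6 and 2412 CPM. Of 10 receptors 5 were higher in each, with Il1rl1, the IL-33 receptor, at 956.2 CPM in mast cells and 67.02 in basophils and Il18rap at 3.399 and 137.1 CPM. Of 8 transcription factors 3 were higher in mast cells, among them Mitf at 241.3 and 2.272 CPM, while Cebpa was 3.399 and 420.7 CPM.

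Of 8 cytokines and chemokines 4 were higher in each. Ccl2 was 3606 CPM in mast cells and 2.651 in basophils, Tnf 537.0 and 20.83 CPM, and Il13 107.6 and 1.893 CPM, while Il6 was 9.063 and 113.6 CPM and Ccl3 2.266 and 554.4 CPM. Of the histamine receptors and the tryptase target F2rl1, only the histamine receptor Hrh4 had at least 50 UMIs, at 12.46 CPM in mast cells and 32.57 CPM in basophils.

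In food allergy, 26 genes of these lists were tested in WT mast cells, where 8.92% of all genes passed 2-fold: Ms4a2 was higher, and Hs3st1 and Gata2 were lower. In App NL-G-F mast cells 28 were tested, where 4.71% of all genes passed: Cd200r3 and Tnf were higher and Gzmb was lower. Gzmb was found in only 2.86% of the mast cells of all libraries, with 143 UMIs, so its fold rests on few cells. In WT basophils 30 were tested, where 6.35% of all genes passed: Ccl3 and Ccl4 were higher, and Hs3st1, Lat2 and Il3ra were lower. In App NL-G-F basophils 0 of 28 passed, where 1.39% of all genes did.

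Over the 19 cell types, the genes whose levels were most like each of the 7, by Pearson correlation of log2(CPM + 10) among genes with at least 100 UMIs, were the following. Meis2 was the nearest to Mcpt4 (0.97), Cma1 (0.97) and Tpsb2 (0.98), followed by Kcnq1 and Lsamp for Mcpt4, Lsamp and Maob for Cma1, and Kcnq1 and Krt4 for Tpsb2. Prss34 was the nearest to Mcpt8 (0.99), then Alox15 and Grm6. Gna14 was the nearest to Cpa3 (0.98), then Poln and Slc18a2. For Hdc these were 2310047D07Rik (0.93), Rab44 and P2rx1. For Tpsab1 they were Gm10354, Gm9758 and Speer4d (each 0.9999), genes at 0 or near 0 CPM in basophils and neutrophils. The points share libraries and are few, and most lie near 0 for these genes, so the correlations are a description.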

How the data were processed

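Brain CD45.2+ cells of 8 groups of mice, 1 library each, were sequenced with a 10x Genomics 5′ kit. The authors aligned the reads to mm10 (GRCm38) and deposited unfiltered UMI counts per gene and barcode, with hashtag counts. Cell Ranger 6.1.2 is named by the labels, while the matrix headers name version 4. The counts were used as deposited, with nothing re-aligned.

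Cells were called by an order-of-magnitude cutoff (3000 expected cells) plus a test against free RNA on barcodes of at least 500 UMIs (false discovery rate 0.01), and kept if they had 200 or more genes and no more than 5% of UMIs from mitochondrial genes. They were scaled to 10000 UMIs and clustered by Leiden at resolution 0.5 (2000 variable genes without the 7 genes, 30 components, 20 neighbours; scanpy 1.11.5, scipy 1.17.1, Python 3.11.15). A cluster was named from at least 3 detected markers. This left 27 clusters, 23 of them named, with 531 cells unnamed. Library depth in cells was 25540554 to 54614706 UMIs, and 5928 cells carried several hashtags or none. Scrublet marked 0 to 20 doublets per library, under 0.5%, and so had not worked; no doublets were removed, and removing the 3.87% to 5.75% of cells with the highest scores was an alternative.

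Intervals were exact Poisson, binomial and conditional intervals at 95%, and Newcombe intervals for differences of shares; all cover counting error only. Shares of mast cells and basophils in food allergy and control were compared over hashtag groups of at least 100 cells by exact two-sided permutation tests, adjusted by Benjamini-Hochberg over 4 tests. Hashtag groups are not shown to be single mice, so these p-values measure only the spread between them. The fold rule and the intervals were tested on simulated Poisson and binomial counts. These hold no spread between cells, hashtag groups or libraries, so that test covers counting error only.

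The genes named were all 7 of the group, the 3 most alike over cell types for each, and genes of 8 lists with at least 50 UMIs in mast cells or basophils. The group, the lists and the markers were chosen with earlier results of these data known. Alternatives covered cell calling, gates, resolution, hashtags, sets, scaling and pseudocounts.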

Additional observations from a re-analysis of the deposited data

Results flagged for a closer look

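Several values lay on opposite sides of the control in the 2 genotypes. None of these differences between genotypes was tested, since each rests on 1 library per group, and the 3 comparisons of a genotype share its control. In mast cells, Hdc in food allergy was 0.5810 times the control in WT and 1.205 times in App NL-G-F mice, and Cpa3 in acute colitis was 0.8995 and 1.357 times. Chronic colitis gave the most such values in mast cells. Cma1 was 0.7568 times the control in WT and 1.510 times in App NL-G-F mice, Tpsb2 0.8474 and 1.408 times, Cpa3 0.8339 and 1.328 times, Hdc 0.5882 and 1.379 times, and the summed CPM of the 7 genes 0.9285 and 1.539 times.

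In basophils, food allergy had Mcpt8 at 0.5697 times the control in WT and 1.113 times in App NL-G-F mice, Cpa3 at 0.6385 and 1.164 times, and the summed CPM at 0.6169 and 1.095 times. Hdc in acute colitis was 1.863 and 0.7444 times the control. The basophil share differed from the control by -0.6992 percentage points in WT and 0.5528 points in App NL-G-F mice in food allergy, by -0.7906 and 0.7493 points in acute colitis, and by -0.6596 and 0.3490 points in chronic colitis. Within the sets the genotypes were not always on opposite sides: WT chronic colitis differed from the control by 0.391 points in the low and 0.0295 points in the high set, and App NL-G-F acute colitis by -0.0881 points in the high set. The intervals of these set differences all included 0.

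Of all UMIs of the 7 genes, 15.72% lay in barcodes that were not called as cells, against 5.391% of the UMIs of all genes.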

How the results depend on the processing

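The share of mast cells (food allergy minus control) was -0.1424 points in WT with only barcodes above the order-of-magnitude cutoff. The share of basophils in WT was -1.139 points with that cutoff, 2.833 points, in the opposite direction, with a gate on single cells by markers, -0.07607 points within the low set, -0.06926 within the high set and -0.1633 as a mean over hashtag groups. The marker gate also took in neutrophils. In App NL-G-F mice the basophil share was 1.960 points with the marker gate, 1.027 within the low set and 0.1050 within the high set. The summed CPM in WT mast cells was 1.298 times the control with exactly 1 hashtag per cell, 0.8442 times with the marker gate, 1.296 within the high set and 1.270 as a mean over hashtag groups. In App NL-G-F mast cells it was 0.9961 times with the marker gate, 1.353 within the high set, 1.387 without the highest Scrublet scores, 1.520 as a mean of per-cell CPM, 1.725 with the 7 genes left out of the total and 1.412 as a mean over hashtag groups. In WT basophils it was 0.5523 times with exactly 1 hashtag, 0.3983 with the marker gate, 0.5676 without the highest Scrublet scores, 0.9839 with a stricter gate, 0.5670 as a mean of per-cell CPM and 0.7998 as a mean over hashtag groups. In App NL-G-F basophils it was 1.157 times at resolution 1.0 and 1.362 within the high set, and below the control at 0.8955 with the stricter gate, 0.9503 as a mean of per-cell CPM and 0.8717 as a mean over hashtag groups. The cause of these changes was not tested. The Scrublet removal, the stricter gate and the hashtag means of CPM were chosen after seeing the data. Leaving out 1 hashtag group at a time gave mast cell shares of 0.03502 to 0.3042 points in WT and -0.2342 (without App NL-G-F food allergy hashtag 5) to 0.3387 in App NL-G-F mice, and basophil shares of -1.035 to -0.2103 and 0.1757 to 0.8345 points. The summed CPM was then 0.8838 to 1.273 and 1.335 to 2.518 times the control in mast cells, and 0.5580 to 0.8873 (without WT control hashtag 5) and 0.8255 to 1.244 times in basophils. The exact permutation p of the shares was under 0.05 in 0 of 78 alternatives, the lowest being 0.1333. Many of these designs could not reach 0.05. In WT the smallest p allowed with all groups is 0.0571. With a hashtag group left out or a set taken alone, neither genotype could pass. The count of 0 is therefore not read as absence of a difference. Of 52 values of single genes under alternatives, 16 lay outside their counting interval and 5 moved by over 1.5 times. The mast cell ratio within the low set and the basophil ratio of WT within the high set are not given among these, since a group there held under 5 cells. No paired analysis was possible because the labels give 1 library per condition and hashtags of the same number are not shown to share mice. With 17 to 47 mast cells and 10 to 104 basophils per library, the number of cells limits every value.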
